A study of Mus musculus with 27 samples.

Results

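The 9 genes described here, Pdgfra, Pdgfrb, Cd34, Ly6a, Dlk1, Thy1, Dpp4, Pi16 and Clec3b, are used in tissue as markers of mesenchymal cells and adipocyte progenitors, and they were taken by gene symbol from the 24825 genes of the deposited tables. They were followed in C2C12 cells, a mouse line of established myoblasts able to form muscle fibers, in which the transcription factor NFIA promotes differentiation into adipocytes. Control cells, cells expressing full-length NFIA and cells expressing the Δpro#3 mutant of NFIA, which lacks the end of the C-terminal proline-rich domain, were compared. All 3 kinds of cell had been infected with retrovirus, so that the constructs were driven by a viral promoter and their protein carried a FLAG tag. RNA was taken at day 0, after 7 days (day 7), for which, per the labels of these samples, cells were given an adipogenic cocktail of isobutylmethylxanthine, indomethacin, dexamethasone, insulin, T3 and rosiglitazone for the first 48 h and then insulin, T3 and rosiglitazone, and at day 7 after 4 h with 10 µM forskolin, an activator of adenylyl cyclase. Control cells received the same cocktail and forskolin. There were 3 replicates in each of the 9 groups and 27 samples in all. The labels do not say that replicates came from separate cultures, so p-values measure the spread between these samples, which may be technical. The whole comparison rests on 1 cell line.

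White and brown adipocytes arise from stromal progenitors that carry PDGF receptors and other surface proteins, and progenitors are commonly sorted with antibodies to these proteins. Platelet-derived growth factor receptors are receptor tyrosine kinases that drive growth and migration of mesenchymal cells. In adipose tissue, Dpp4 and Pi16 mark an early interstitial progenitor, while Dlk1 (also called Pref-1) marks preadipocytes and its shed form restrains adipogenesis. In muscle, Pdgfra and Ly6a (Sca-1) mark the fibro-adipogenic progenitors that lie between fibers, a population distinct from myoblasts.

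Values are FPKM (fragments divided by transcript length and by the fragments of the whole sample), as the authors deposited them. The fragments behind each value could be worked back, and the samples held 9567769 to 27230965 fragments each, with a median of 17707223. A level of 3 fragments in a sample corresponded to between 0.0128 and 0.0364 FPKM for Pdgfra, the longest transcript of the 9 (8610 nt), and to between 0.111 and 0.316 FPKM for Clec3b, the shortest (992 nt). Groups were compared with limma on log2(FPKM + 1), over the genes with a mean of 0.5 FPKM or more in the samples compared. The call "changed" required an adjusted p-value (Benjamini-Hochberg) under 0.05 and a difference of more than 3-fold in FPKM + 1, and "rose" and "fell" are used for such genes. Between 4.97% and 79.7% of all genes tested passed the p-value alone, at any fold, in the 18 comparisons made. Differences on this scale are smaller than ratios of FPKM for genes of low level.

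Clec3b was chosen by its measured FPKM, as one of the largest rises with the Δpro#3 mutant at day 0. Values of all 9 genes in that contrast are therefore given as a description with no test, and the same holds for Clec3b wherever samples of day 0 enter. Both constructs were compared with the same control samples, so values of both comparisons are set side by side and their likeness is not evidence.

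Of the 9 genes, 6 reached a mean of 1 FPKM in at least 1 group (Pdgfra, Pdgfrb, Cd34, Ly6a, Pi16 and Clec3b). The other 3, Dlk1, Thy1 and Dpp4, stayed near 0 in every group. The order of the groups differed from gene to gene.

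**Figure D1:**
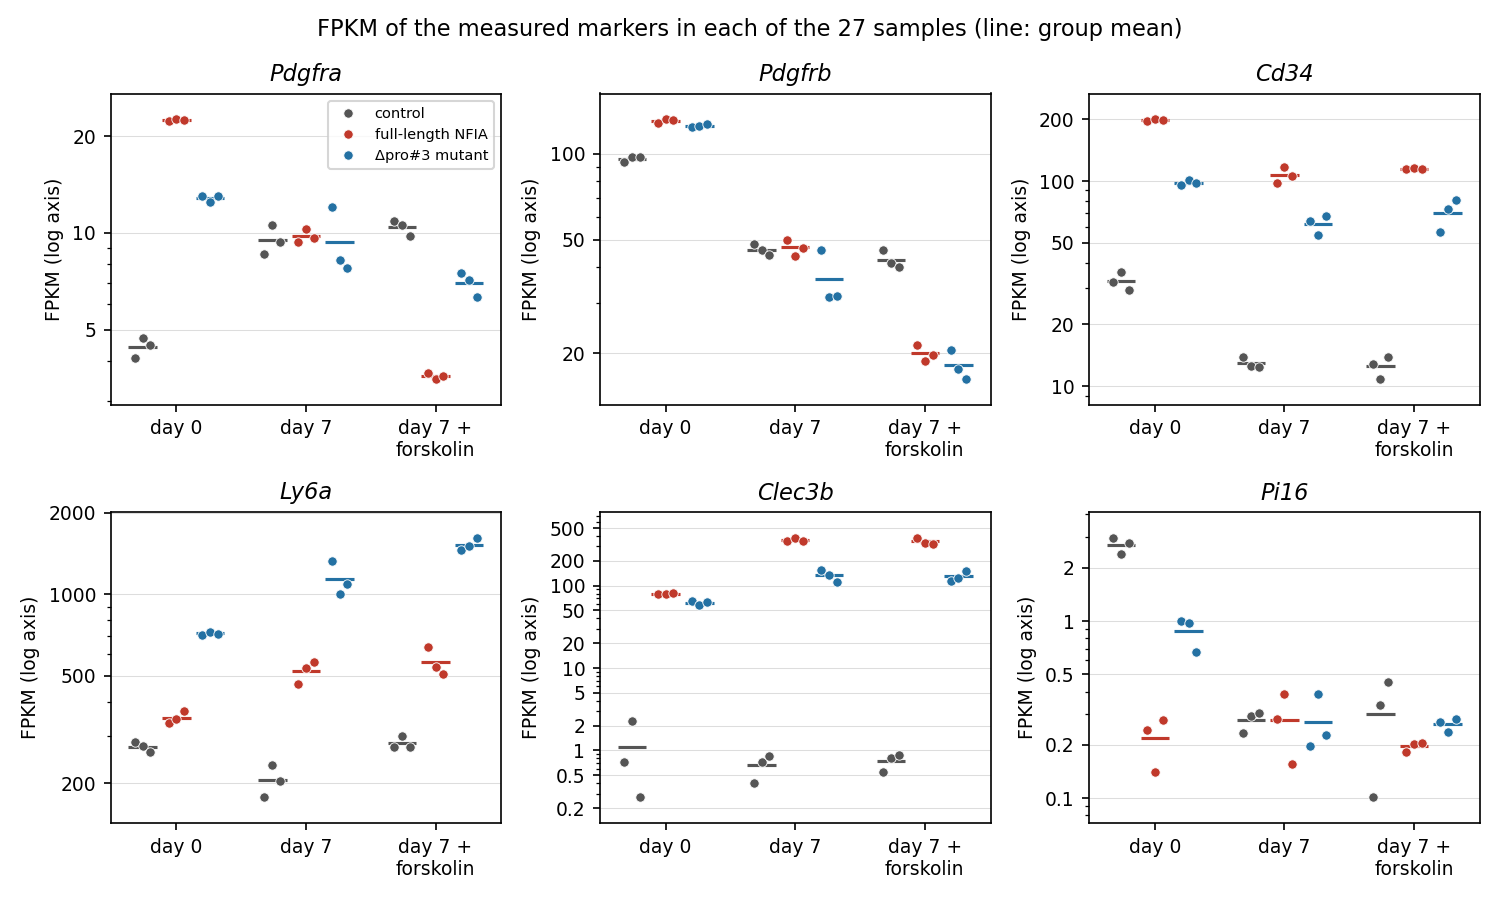
FPKM (log axis) of the 6 measured markers in each of the 27 samples, by time point and kind of cell. Each point is 1 sample and each line the mean of 3. Clec3b lies at 2.30 FPKM or below in every control sample and between 57.6 and 379 FPKM in every sample with a construct, while the samples of Pdgfra and of Pdgfrb overlap between all 3 kinds of cell at day 7 before forskolin.

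At day 0, full-length NFIA was accompanied by higher Pdgfra and Cd34 and lower Pi16, while Pdgfrb and Ly6a were higher by less than 3-fold. Of the 5 markers tested, 3 were called changed, against 5.24% of the 12105 genes tested. Pi16 passed the minimum level because of its level in control cells, so neither its difference from control nor this count is support in itself.

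Pdgfra (chromosome 5 from 75548316 to 75594229, plus strand, mouse build NCBIM37), the PDGF receptor alpha, had 4.06, 4.71 and 4.47 FPKM in the 3 control samples, 22.3, 22.6 and 22.6 FPKM with full-length NFIA and 13.1, 12.5 and 13.0 FPKM with the Δpro#3 mutant. The 3 groups did not overlap, and full-length NFIA was highest. The log2 difference of full-length NFIA from control was 2.12 (SE 0.044, adjusted p = 1.64e-11 by limma), a rise to 5.09-fold of the control mean. The Δpro#3 mutant stood at 2.91-fold of the control mean and was lower than full-length NFIA by less than 3-fold (log2 difference -0.76, SE 0.044, adjusted p = 8.87e-08 by limma).

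Pdgfrb (chromosome 18 from 61204804 to 61244715, plus strand), the PDGF receptor beta, which also marks pericytes, was already abundant in control cells, at 93.7, 97.6 and 97.0 FPKM. It had 128, 132 and 132 FPKM with full-length NFIA and 124, 125 and 127 FPKM with the Δpro#3 mutant. Both constructs lay above control in all samples, but full-length NFIA was only 1.36-fold of the control mean (log2 difference 0.44, SE 0.028, adjusted p = 9.61e-08 by limma).

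Cd34 (chromosome 1 from 196765015 to 196787486, plus strand) encodes a surface sialomucin that is used to sort stromal progenitors. It had 32.3, 36.1 and 29.6 FPKM in control, 197, 200 and 198 FPKM with full-length NFIA and 96.0, 101 and 97.7 FPKM with the Δpro#3 mutant. With full-length NFIA it rose to 6.07-fold of the control mean (log2 difference 2.57, SE 0.057, adjusted p = 2.42e-11 by limma). The Δpro#3 mutant was at 3.01-fold of control in FPKM, which is just under the 3-fold threshold on FPKM + 1, and lay below full-length NFIA with no overlap (log2 difference -1.01, SE 0.057, adjusted p = 7.16e-08 by limma).

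Ly6a (chromosome 15 from 74825308 to 74828064, minus strand), the GPI-anchored surface antigen Sca-1, was the most abundant of the 9 genes per length in all 9 groups. It had 284, 274 and 261 FPKM in control, 334, 345 and 371 FPKM with full-length NFIA and 707, 724 and 715 FPKM with the Δpro#3 mutant. In contrast to Pdgfra and Cd34, the mutant lay above full-length NFIA, with no overlap. The mutant was 2.04-fold of full-length NFIA (log2 difference 1.03, SE 0.044, adjusted p = 8.62e-09 by limma), and full-length NFIA was 1.28-fold of control (log2 difference 0.36, SE 0.044, adjusted p = 2.73e-05).

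Pi16 (chromosome 17 from 29455822 to 29466358, plus strand), a secreted peptidase inhibitor, moved the other way. It had 2.95, 2.40 and 2.76 FPKM in control, 0.243, 0.141 and 0.275 FPKM with full-length NFIA and 0.996, 0.978 and 0.670 FPKM with the Δpro#3 mutant, which rested on 466, 29 and 142 fragments. It fell with full-length NFIA by 1.60 on the log2(FPKM + 1) scale (SE 0.088, adjusted p = 3.00e-08 by limma), and control was 12.3-fold of full-length NFIA in FPKM. Since Pi16 passed the minimum level because of its level in control cells, this test is no support in itself. The call sits at the 3-fold threshold: without control replicate 1 or without full-length NFIA replicate 2 the difference was -1.55 and Pi16 was no longer called, although its samples did not overlap. The mutant was 4.01-fold of full-length NFIA in FPKM, with a log2(FPKM + 1) difference of 0.62 (SE 0.088, adjusted p = 1.02e-04 by limma). That difference was 1.62 with a pseudocount of 0.1 and 2.03 on the worked-back fragments, and Pi16 was then called.

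Clec3b (chromosome 9 from 123060064 to 123066548, plus strand) encodes tetranectin, a secreted lectin-like protein that binds plasminogen and is abundant in stromal fibroblasts. It had 0.722, 2.30 and 0.270 FPKM in control, 78.6, 78.2 and 81.0 FPKM with full-length NFIA and 64.6, 57.6 and 62.8 FPKM with the Δpro#3 mutant. Both constructs lay far above every control sample, with full-length NFIA at 72.3-fold and the mutant at 56.3-fold of the control mean, or at 160-fold and 124-fold without control replicate 2. The mutant reached 0.778 of the level of full-length NFIA. Control replicate 2 held the highest level of Clec3b among control samples. It also had 7.35 FPKM of Nfia, against 0.879 and 0.175 FPKM in the other control samples, which is 3.04% of the mean of NFIA-expressing cells, beside 2.90% for Clec3b. The part of this sample in the values of control cells was not tested. Without it, the log2 difference between the mutant and control was 5.40, against 5.02 with it.

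In the contrast by which Clec3b was chosen, the Δpro#3 mutant against control at day 0, 1 of the 6 markers over the minimum level (Clec3b) was past the threshold, beside 2.18% of all genes tested, and nothing is read from it. Without control replicate 2, Cd34 was also past it, so that 2 of 6 were counted. Between the mutant and full-length NFIA, none of the 5 markers tested was called, beside 2.05% of all genes. Of these 5, Pdgfrb missed the p-value threshold (adjusted p = 0.0847 by limma), while the other 4 passed it at under 3-fold, as 65.3% of all genes passed it at any fold.

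The sequence before the transcription start is shown for Cd34 and Pdgfra, which rose with full-length NFIA, and for Pi16, which fell, so that the letters of the NFI motif can be looked for. Each is the 250 bases upstream of the RefSeq start, in build GRCm38.p6, 5′ to 3′ on the plus strand, and capitals mark TTGGC or its reverse complement GCCAA.
Cd34, chr1:194938571-194938820: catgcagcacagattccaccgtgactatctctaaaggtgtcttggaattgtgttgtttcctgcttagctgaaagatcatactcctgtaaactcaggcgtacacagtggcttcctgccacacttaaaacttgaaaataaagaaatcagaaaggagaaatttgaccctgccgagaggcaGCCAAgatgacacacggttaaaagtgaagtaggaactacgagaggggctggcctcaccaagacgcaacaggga
Pdgfra, chr5:75152001-75152250: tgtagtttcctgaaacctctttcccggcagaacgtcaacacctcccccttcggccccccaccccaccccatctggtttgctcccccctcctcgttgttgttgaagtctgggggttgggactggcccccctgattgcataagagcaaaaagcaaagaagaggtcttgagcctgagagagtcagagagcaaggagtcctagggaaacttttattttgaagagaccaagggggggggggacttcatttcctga
Pi16, chr17:29318632-29318881: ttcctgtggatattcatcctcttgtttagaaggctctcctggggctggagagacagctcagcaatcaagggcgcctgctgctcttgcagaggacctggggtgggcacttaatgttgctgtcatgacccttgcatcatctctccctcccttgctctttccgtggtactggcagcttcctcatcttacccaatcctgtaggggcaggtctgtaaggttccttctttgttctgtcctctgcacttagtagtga
The NFI motif, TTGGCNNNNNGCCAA, was searched on both strands and was in none of these windows or of those of Dlk1 and Dpp4. It was in 0.0365% of the 32851 windows of this kind in RefSeq. The 5 bases TTGGC or GCCAA, each of which is a part of that motif, were in Cd34 at -73 from the start and in none of the other 4 windows, beside 41.5% of all windows. Windows of 5 of the 9 genes were searched. Those of Pdgfrb, Ly6a, Thy1 and Clec3b were not searched, so nothing is said of the motif in these genes. These are matches of letters in a short window, and distal sites were not searched.

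At day 7, the ratios to control of Cd34, Ly6a and Clec3b were larger than at day 0, while the samples of Pdgfra and of Pdgfrb overlapped between the kinds of cell. With full-length NFIA, 2 of the 5 markers tested were called changed (Cd34 and Clec3b, beside 8.17% of the 12324 genes tested). With the Δpro#3 mutant it was 3 of 5 (Cd34, Ly6a and Clec3b, beside 1.44%). Clec3b had been chosen by its rise with the mutant at day 0. Counts that hold it are therefore no support in themselves, here and after forskolin.

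Cd34 had 13.9, 12.5 and 12.4 FPKM in control, 98.3, 117 and 106 FPKM with full-length NFIA and 64.0, 54.7 and 67.3 FPKM with the mutant. The 3 groups did not overlap. The log2 difference from control was 2.95 (SE 0.089, adjusted p = 1.28e-09 by limma) with full-length NFIA and 2.17 (SE 0.089, adjusted p = 1.33e-07) with the mutant, which are 8.28-fold and 4.79-fold of the control mean. The mutant was lower than full-length NFIA by less than 3-fold (log2 difference -0.78, adjusted p = 2.79e-05 by limma).

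Clec3b had 0.397, 0.719 and 0.860 FPKM in control, 347, 377 and 349 FPKM with full-length NFIA and 156, 136 and 111 FPKM with the mutant. It was the marker with the largest difference from control. The log2 differences were 7.77 (SE 0.13, adjusted p = 4.38e-11 by limma) and 6.35 (SE 0.13, adjusted p = 1.93e-09), and the FPKM means were 543-fold and 204-fold of control. The mutant was at 0.376 of full-length NFIA (log2 difference -1.42, SE 0.13, adjusted p = 4.74e-06 by limma), where it had been at 0.778 at day 0.

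Ly6a had 177, 234 and 204 FPKM in control, 464, 533 and 561 FPKM with full-length NFIA and 1325, 1001 and 1091 FPKM with the mutant. The order of day 0 was kept, with no overlap between groups. The mutant rose to 5.55-fold of control (log2 difference 2.47, SE 0.13, adjusted p = 5.71e-07 by limma) and was at 2.19-fold of full-length NFIA (log2 difference 1.13, SE 0.13, adjusted p = 2.44e-05). Full-length NFIA was 2.53-fold of control (log2 difference 1.34, adjusted p = 4.51e-06 by limma), under the 3-fold threshold.

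Pdgfra had 8.58, 10.6 and 9.36 FPKM in control, 9.40, 10.3 and 9.64 FPKM with full-length NFIA and 12.1, 8.25 and 7.76 FPKM with the mutant, and all groups overlapped. The log2 difference of full-length NFIA from control was 0.04 (SE 0.14, adjusted p = 0.817 by limma). That of the mutant was -0.04 (SE 0.14, adjusted p = 0.834) and turned to 0.016 with median-ratio scaling between samples. Pdgfrb had 48.4, 45.9 and 44.1 FPKM in control, 50.01, 44.0 and 47.0 FPKM with full-length NFIA and 46.0, 31.5 and 31.8 FPKM with the mutant. Replicate 1 of the mutant was apart from the other replicates for both receptors. Without it, the log2 difference of the mutant from control was -0.22 (adjusted p = 0.0632 by limma) for Pdgfra and -0.53 (adjusted p = 2.07e-04) for Pdgfrb, where it was -0.35 (adjusted p = 0.0398) with it. For both receptors, the overlap of the mutant with the other groups rested on that replicate. The log2 difference of the mutant from full-length NFIA was -0.38 (SE 0.13, adjusted p = 0.0227 by limma) for Pdgfrb and -0.08 (adjusted p = 0.646) for Pdgfra. Without replicate 1 of the mutant they were -0.55 (adjusted p = 5.37e-05 by limma) and -0.26 (adjusted p = 0.0243) in that order, both under 3-fold. None of the 5 markers tested was called between the mutant and full-length NFIA, beside 6.30% of all genes.

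**Figure D2:**
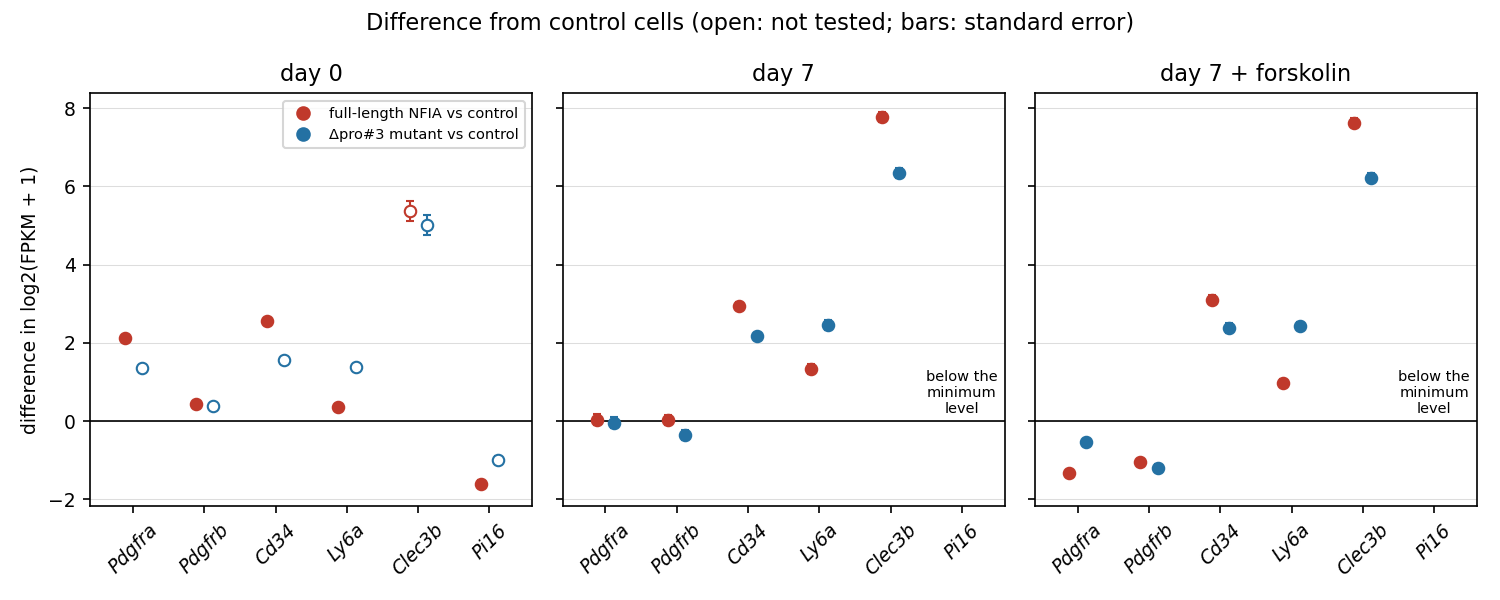
Difference in log2(FPKM + 1) from control cells for the 6 measured markers at each time point, with full-length NFIA in red and the Δpro#3 mutant in blue. Points are estimates of limma over 3 samples a group, bars are standard errors, and open points were not tested. Clec3b lies between 5.02 and 7.77 in all 3 panels, Ly6a is higher for the mutant in each, and Pdgfra and Pdgfrb lie between -0.52 and -1.32 after forskolin. At day 7 the mutant's Pdgfra value of -0.04 turns to 0.016 with median-ratio scaling.

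Forskolin for 4 h left Cd34 and Clec3b near their day 7 levels and was followed by lower Pdgfra and Pdgfrb in cells with a construct. The response is the log2 difference between samples of day 7 with and without forskolin. None of the 5 markers tested was called changed in response to forskolin by the 3-fold threshold, in control (beside 0.392% of the 12245 genes tested), with full-length NFIA (beside 0.743%) or with the Δpro#3 mutant (beside 0.588%). With the p-value alone, 1 of the 5 passed in control (Ly6a, beside 20.5% of all genes), 2 with full-length NFIA (Pdgfra and Pdgfrb, beside 55.4%) and 3 with the mutant (Ly6a, Pdgfra and Pdgfrb, beside 35.8%). Median-ratio scaling moved the median response of all genes with full-length NFIA by 0.11 (log2).

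Pdgfra had 10.9, 10.6 and 9.81 FPKM in control cells after forskolin, 3.65, 3.51 and 3.58 FPKM with full-length NFIA and 7.51, 7.14 and 6.31 FPKM with the mutant. Full-length NFIA, the highest group at day 0, was here the lowest of all 9 groups, and the 3 groups did not overlap. Its forskolin response was -1.23 (SE 0.11, adjusted p = 2.05e-07 by limma), to 0.367 of the level before forskolin, against 0.13 (SE 0.11, adjusted p = 0.500) in control. The difference between these responses was -1.36 (SE 0.16, adjusted p = 1.21e-05 by limma), and it was -1.59 and past 3-fold on the worked-back fragments. With the mutant the response was -0.36 (SE 0.11, adjusted p = 0.0232), or -0.18 (adjusted p = 0.126) without replicate 1 of day 7, and it did not differ from that of control at the p-value threshold (difference -0.48, SE 0.16, adjusted p = 0.104 by limma).

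Pdgfrb had 46.1, 41.3 and 40.0 FPKM in control cells after forskolin, 21.5, 18.8 and 19.8 FPKM with full-length NFIA and 20.5, 17.7 and 16.3 FPKM with the mutant. Both constructs lay below control with no overlap, and they overlapped each other. The response was -1.19 (SE 0.12, adjusted p = 3.39e-07 by limma) with full-length NFIA and -0.95 (SE 0.12, adjusted p = 9.76e-06) with the mutant, against -0.12 (SE 0.12, adjusted p = 0.539) in control. The difference from the response of control was -1.07 (SE 0.16, adjusted p = 1.31e-04 by limma) and -0.83 (SE 0.16, adjusted p = 0.00669) in that order. None of the 5 markers was called for these differences at over 3-fold, beside 0.572% of all genes for full-length NFIA and 0.212% for the mutant.

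Ly6a had 273, 298 and 273 FPKM in control cells after forskolin, 635, 536 and 509 FPKM with full-length NFIA and 1458, 1506 and 1614 FPKM with the mutant. The last were the highest levels of any of the 9 genes in any sample. The response was 0.46 (SE 0.11, adjusted p = 0.00850 by limma) in control, 0.11 (SE 0.11, adjusted p = 0.451) with full-length NFIA and 0.43 (SE 0.11, adjusted p = 0.00798) with the mutant.

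Cd34 had 12.8, 10.9 and 13.9 FPKM in control cells after forskolin, 115, 116 and 114 FPKM with full-length NFIA and 56.4, 72.7 and 80.5 FPKM with the mutant. Clec3b had 0.551, 0.814 and 0.872 FPKM, 379, 331 and 320 FPKM, and 115, 123 and 152 FPKM in the same order. For both genes the samples with and without forskolin overlapped in all 3 kinds of cell. Their responses ranged from -0.06 for Clec3b with full-length NFIA to 0.16 for Cd34 with the mutant (adjusted p between 0.292 and 0.820 over both genes, limma). Those of Cd34 in control and of Clec3b with full-length NFIA changed sign with median-ratio scaling. A p-value over the threshold does not show that a level was unchanged.

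Between kinds of cell after forskolin, 2 of the 5 markers tested were called with full-length NFIA (Cd34 at 3.10 and Clec3b at 7.63 on the log2 scale, beside 8.02% of the 12121 genes tested). With the Δpro#3 mutant, 3 of the 5 were called (Cd34 at 2.38, Clec3b at 6.22 and Ly6a at 2.43, beside 1.55%). Between the mutant and full-length NFIA it was none of 5, beside 6.20%. Median-ratio scaling moved the median of all genes by 0.16 (log2) in the first of these comparisons and by -0.12 in the last. Within the last, Ly6a was higher in the mutant by 1.45 (SE 0.089, adjusted p = 1.32e-07 by limma) and Clec3b differed by -1.40 (SE 0.11, adjusted p = 1.02e-06), both under 3-fold.

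From day 0 to day 7, Pdgfra and Ly6a had log2 differences of opposite sign in control cells and in cells with a construct, while Pdgfrb and Cd34 were lower at day 7 in all 3 kinds of cell. Of the 5 markers tested, none was called in control (beside 6.70% of the 12408 genes tested) or with full-length NFIA (beside 10.1%). With the Δpro#3 mutant 1 was called, Pdgfrb (beside 6.84%). Median-ratio scaling moved the median of all genes by 0.13 (log2) with full-length NFIA and by 0.11 with the mutant.

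The log2 difference of Pdgfra between day 7 and day 0 was 0.95 (SE 0.11, adjusted p = 4.18e-07 by limma) in control, -1.13 (SE 0.11, adjusted p = 5.09e-08) with full-length NFIA and -0.44 (SE 0.11, adjusted p = 0.00138) with the mutant. In FPKM, control went to 2.15-fold, full-length NFIA to 0.434 and the mutant to 0.728 of the day 0 mean, with no overlap between time points. The difference between full-length NFIA and control was -2.08 (SE 0.15, adjusted p = 3.46e-09 by limma), which is past the 3-fold threshold. Pdgfrb fell with the mutant by 1.78 (SE 0.098, adjusted p = 4.15e-11 by limma), to 0.291 of its day 0 mean, and the log2 difference was -1.04 (SE 0.098) in control and -1.46 (SE 0.098) with full-length NFIA.

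For Cd34, day 7 was lower than day 0 in all 3 kinds of cell, with log2 differences of -1.27 in control, -0.88 with full-length NFIA and -0.66 with the mutant (SE 0.079 each, adjusted p between 1.92e-10 and 8.24e-07 by limma). For Ly6a they were -0.42, 0.57 and 0.66 in that order (SE 0.10 each, adjusted p between 1.37e-05 and 0.00116). The difference between full-length NFIA and control was 0.38 (SE 0.11, adjusted p = 0.00590 by limma) for Cd34 and 0.98 (SE 0.14, adjusted p = 1.09e-05) for Ly6a.

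Pi16 had 0.234, 0.291 and 0.304 FPKM in control cells at day 7, where it had been 2.40 or higher at day 0. With full-length NFIA it had 0.279, 0.389 and 0.156 FPKM and with the mutant 0.197, 0.386 and 0.226 FPKM, and all 3 groups overlapped. These levels rested on 4 to 19 fragments a sample. After forskolin they were 0.101 to 0.455 FPKM over the 9 samples. The log2 difference with time in control was -1.54 (SE 0.091, adjusted p = 1.07e-10 by limma), just under the threshold, for a ratio of 0.102 in FPKM. It was called at -1.60 without control day 0 replicate 2, and at -2.90 with a pseudocount of 0.1. With full-length NFIA, in which Pi16 was low at day 0 already, it was 0.06 (SE 0.091, adjusted p = 0.547). The difference between them was 1.60 (SE 0.13, adjusted p = 1.13e-08 by limma). With Pdgfra and Pi16, 2 of the 5 markers were called for a difference with time between full-length NFIA and control, beside 7.62% of all genes. Pi16 passed the minimum level through control cells of day 0, so neither its differences with time nor this count is support in itself. The call of Pi16 was lost at 1.53 to 1.58 when any of 5 samples was left out (control day 0 replicates 1 and 3, control day 7 replicate 1, and replicate 2 of full-length NFIA at either time point).

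Clec3b, not tested here, was at 4.51-fold of its day 0 mean at day 7 with full-length NFIA and at 2.18-fold with the mutant, with no overlap between time points in either. In control cells the time points overlapped, at 0.270 to 2.30 and 0.397 to 0.860 FPKM.

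**Figure D3:**
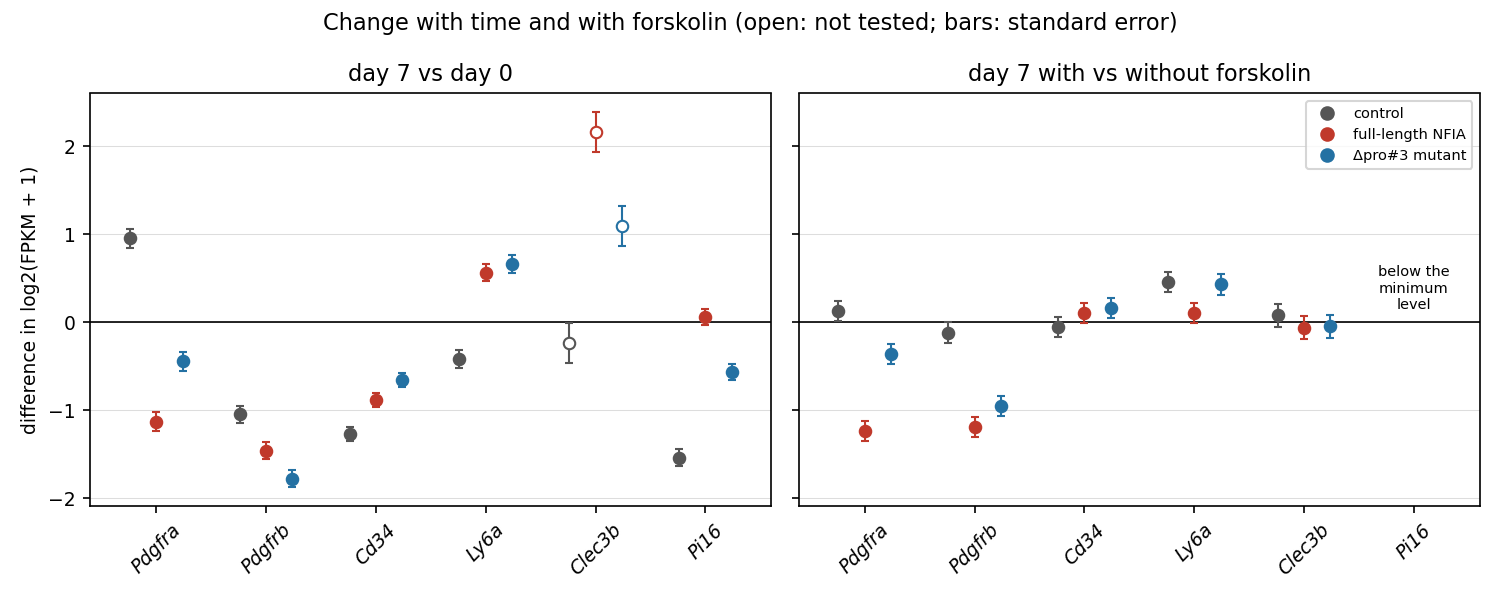
Difference in log2(FPKM + 1) between day 7 and day 0 (left) and between day 7 with and without forskolin (right), for control in grey, full-length NFIA in red and the Δpro#3 mutant in blue. Points are estimates of limma over 3 samples a group, bars are standard errors, open points were not tested, and Pi16 was under the minimum level on the right. Pdgfra lies at 0.95 in control and at -1.13 with full-length NFIA on the left, and the receptors lie at -1.23 and -1.19 with full-length NFIA on the right. The values of Cd34 in control and of Clec3b with full-length NFIA on the right change sign with median-ratio scaling.

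In the order of the 9 group means, Pdgfra was highest in cells with full-length NFIA at day 0 and lowest in the same cells after forskolin, at 22.5 ± 0.145 and 3.58 ± 0.0684 FPKM (SD, n = 3). The 4 groups in the middle, the 3 kinds of cell at day 7 and control after forskolin, lay between 9.37 and 10.4 FPKM and overlapped as neighbours. For Pdgfrb, the 3 groups of day 0 lay above all others, each apart from its neighbour. For Cd34 the 3 lowest groups were the 3 control groups, for Ly6a also, and for Clec3b also. For Ly6a the 3 highest groups were those of the mutant, from 715 ± 8.67 to 1526 ± 79.7 FPKM (SD, n = 3), while for Clec3b the 2 highest were full-length NFIA at day 7 with and without forskolin, which overlapped at 344 ± 31.5 and 358 ± 16.4 FPKM (SD, n = 3). For Pi16 the 7 lowest groups overlapped as neighbours, and the mutant and control at day 0 stood above them.

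Thy1 (CD90, chromosome 9 from 43851467 to 43856662, plus strand), a GPI-anchored protein of mesenchymal stromal cells, had 26 fragments over the 27 samples. It had none in the 3 control samples of day 0 and at most 4 in any sample, and 14 samples had at least 1. Its highest group mean was 0.0966 ± 0.0562 FPKM (SD, n = 3), with full-length NFIA after forskolin, where 3 fragments are worth between 0.0635 and 0.181 FPKM over all samples. Dpp4 (chromosome 2 from 62168130 to 62250288, minus strand), a membrane serine peptidase, had 8 fragments in 7 samples, of which 7 were in cells with the mutant and 1 in control. Dlk1 (chromosome 12 from 110691033 to 110701546, plus strand) had 1 fragment, in 1 sample of the mutant at day 0. The other 26 samples were at 0, and a count of 0 allows up to 3 fragments a sample, or between 0.0229 and 0.0652 FPKM for Dlk1. This limit covers counting error only. In exact permutation tests of 3 against 3 samples (2-sided), in which 0.1 is the smallest p possible, it was reached in 2 of 14 comparisons of Thy1, 2 of 10 of Dpp4 and 0 of 2 of Dlk1. No comparison of this size can pass 0.05, so these tests cannot call a difference. The exact tests of Pi16 at day 7 and after forskolin gave 0.1 in 1 of 9 comparisons.

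**Figure D4:**
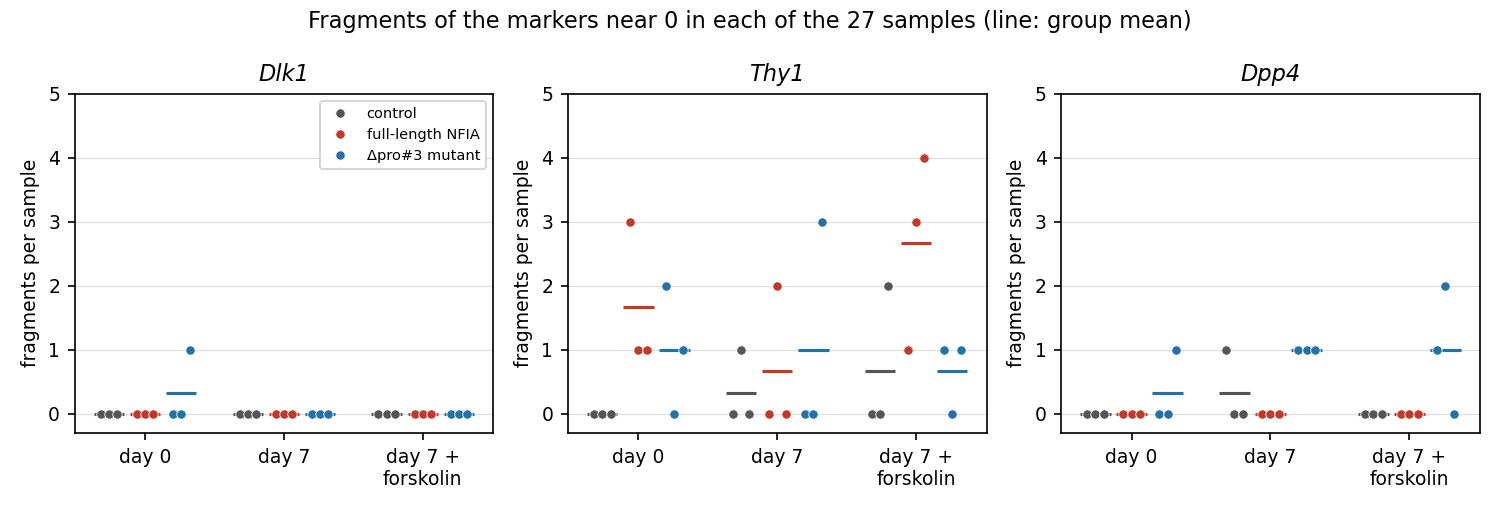
Fragments per sample (linear axis) of Dlk1, Thy1 and Dpp4, by time point and kind of cell. Each point is 1 of the 27 samples and each line the mean of 3. No sample has more than 4 fragments of Thy1, 2 of Dpp4 or 1 of Dlk1.

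Over the 9 group means of log2(FPKM + 1), the genes most like each marker were looked up among 11582 genes, as a description. The group means share libraries and constructs, so many genes follow the same few contrasts. The gene most like Clec3b was Nfia itself (Pearson r = 0.974 over 9 groups), whose fragments come from the introduced and the endogenous gene together, followed by Mal (0.968) and Clu (0.967). Nfia had 242 ± 14.2 FPKM with full-length NFIA and 406 ± 14.6 FPKM with the mutant at day 0, and 482 ± 40.1 and 413 ± 58.9 FPKM at day 7 (SD, n = 3). Cd34 was most like Mindy2 (0.977), Pcolce2 (0.969) and Pxdc1 (0.963). Pdgfra was most like Slc35b2 (0.958), Pdgfrb like Abhd14b (0.987), Ly6a like AI662270 (0.934) and Pi16 like Pdlim4 (0.971). Among the markers, the closest pair was Cd34 and Clec3b (0.869), followed by Ly6a and Clec3b (0.727) and by both PDGF receptors (0.573).

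**Figure D5:**
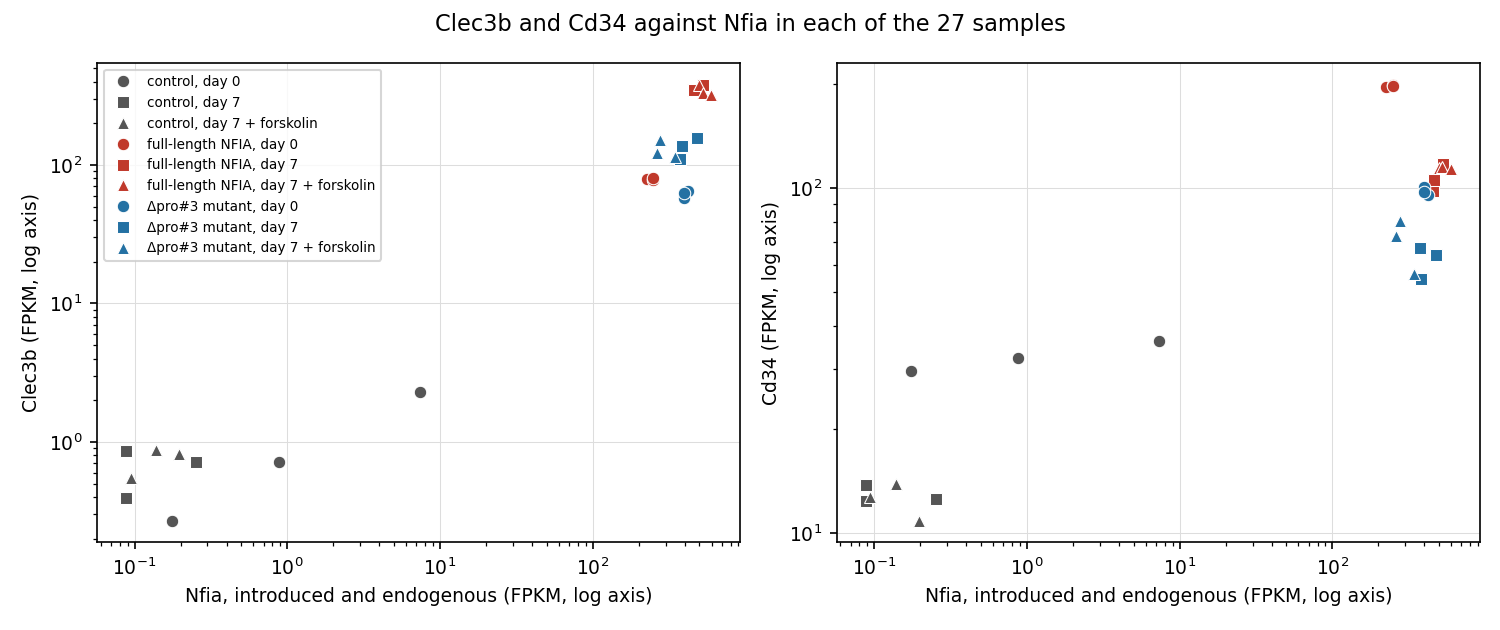
Clec3b (left) and Cd34 (right) against Nfia in each of the 27 samples, in FPKM on log axes, with kinds of cell by color and time points by shape. The samples fall apart into control on the left and both constructs on the right, and control replicate 2 of day 0 is the control sample with the most Nfia (7.35 FPKM) and the most Clec3b (2.30 FPKM).

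The 4 PDGF ligands were examined beside the receptors. Pdgfa and Pdgfc, which bind the alpha receptor, and Pdgfd, which binds the beta receptor, were expressed in control cells at day 0 at 27.01 ± 2.26, 49.1 ± 0.943 and 12.7 ± 0.403 FPKM (SD, n = 3), and Pdgfb at 1.57 ± 0.231 FPKM. With full-length NFIA 2 of the 4 fell, Pdgfc to 8.56 ± 0.218 FPKM (log2 difference -2.39, adjusted p = 5.64e-13 by limma) and Pdgfd to 0.746 ± 0.108 FPKM (log2 difference -2.98, adjusted p = 1.34e-11), beside 5.24% of all genes called. With the mutant, 1 of 4, Pdgfc, was past the threshold at 14.9 ± 0.299 FPKM, beside 2.18% of all genes, and Pdgfd was at 5.01 ± 0.378 FPKM. The median of the 4 was -1.57 for full-length NFIA and -1.14 for the mutant, beside 0.01 for all genes in both. At day 7 none of the 4 was called against control with full-length NFIA (beside 8.17% of all genes) or with the mutant (beside 1.44%).

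Of 17 further markers of adipose stromal progenitors, 10 were over the minimum level at day 0 and 1 of them was past the threshold with each construct, beside 5.24% of all genes for full-length NFIA and 2.18% for the mutant. It was Pcolce2, an enhancer of procollagen processing, which had 13.5 ± 0.304 FPKM in control, 109 ± 2.96 FPKM with full-length NFIA and 76.8 ± 1.17 FPKM with the mutant (SD, n = 3). At day 7, 5 of 11 were called with full-length NFIA, beside 8.17% of all genes. Pcolce2 (2.78 on the log2 scale), the mitochondrial protein Efhd1 (2.32), the basement membrane collagen Col15a1 (5.52) and the matrix protein Vit (2.44) rose, and Anxa3 fell by 1.71. Vit, at 0.0766 FPKM in control, passed the minimum level only through full-length NFIA, so its call and the count that holds it are no support in themselves, here and after forskolin. With the mutant, 2 of 11 were called, Pcolce2 (2.11) and Efhd1 (2.22), beside 1.44%. Col15a1 had 0.700 ± 0.112 FPKM in control, 77.0 ± 2.94 FPKM with full-length NFIA and 1.30 ± 1.13 FPKM with the mutant. The median of the list at day 7 was 1.06 for full-length NFIA and 0.34 for the mutant, beside -0.08 and -0.04 for all genes. After forskolin, 6 of 11 rose with full-length NFIA (Cd55, Col15a1, Efhd1, Pcolce2, Vcam1 and Vit, beside 8.02% of all genes) and 2 with the mutant (Efhd1 and Pcolce2, beside 1.55%).

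Of 7 further genes of the Ly6 family, 4 were over the minimum level at day 7, and Ly6c1 and Ly6c2 rose with both constructs, beside 8.17% of all genes called for full-length NFIA and 1.44% for the mutant. Ly6c1 had 22.7 ± 4.34 FPKM in control, 326 ± 28.1 FPKM with full-length NFIA and 267 ± 55.3 FPKM with the mutant (SD, n = 3). The log2 differences from control were 3.80 and 3.49 (adjusted p = 9.69e-09 and 2.33e-07 by limma). At day 0, none of the 3 tested was past the threshold with full-length NFIA (beside 5.24%) or with the mutant (beside 2.18%). Ly6c1 and Ly6c2 are near-identical, only uniquely mapped reads were counted, and the split between them is uncertain. Of 6 genes of the imprinted Dlk1-Dio3 locus, 0 reached 1 FPKM in any group.

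Of 18 further surface proteins and transcription factors of mesenchymal cells, 12 were tested at day 0. With full-length NFIA 1 of them was called (beside 5.24% of all genes), the adhesion protein Alcam, which fell from 5.81 ± 0.152 to 0.424 ± 0.095 FPKM (SD, n = 3). Alcam was also the 1 past the threshold with the mutant, beside 2.18% of all genes. Its level with full-length NFIA was under the minimum of 0.5 FPKM, so its call and this count are no support in themselves. The medians of the list were -0.02 and 0.31, beside 0.01 for all genes. At day 7 none of 13 was called against control with full-length NFIA (beside 8.17%) or with the mutant (beside 1.44%), and the medians were -0.43 and -0.08 beside -0.08 and -0.04.

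Markers of other cells were read in the same samples. Of 8 adipocyte markers, 4 were over the minimum level at day 0, and the list summed to 40.5 to 49.1 FPKM in control, 432 to 459 FPKM with full-length NFIA and 318 to 335 FPKM with the mutant. With full-length NFIA 4 of the 4 were called (beside 5.24%), and 3 of 4 were past the threshold with the mutant (beside 2.18%), where 2 were left without control replicate 3 or mutant replicate 1 or 3. Fabp4, at 0.232 FPKM in control, passed the minimum level through cells with a construct, so these counts are no support in themselves. All 8 reached 1 FPKM at day 7, where the sums were 360 to 398 FPKM, 13485 to 15002 FPKM and 632 to 2041 FPKM in that order. Most of the sum with full-length NFIA was Fabp4, at 11386 ± 697 FPKM (SD, n = 3). With the mutant, Fabp4 had 1415, 294 and 354 FPKM, so that replicate 1, which was also apart for the PDGF receptors, set the upper end of the range. At day 7, 8 of 8 were called against control with full-length NFIA, beside 8.17% of all genes, and 3 of 8 with the mutant (Adipoq, Fabp4 and Plin1), beside 1.44%. Without replicate 1 of the mutant, a setting chosen after the data were seen, it was 1 of 8, Plin1. After forskolin, 8 of 8 were called with full-length NFIA (beside 8.02%) and 0 of 8 with the mutant (beside 1.55%). The 8 myogenic markers summed to 1134 to 1156 FPKM in control, 232 to 243 FPKM with full-length NFIA and 621 to 633 FPKM with the mutant at day 0, and to 2267 to 2549, 685 to 827 and 1908 to 2168 FPKM at day 7. With full-length NFIA, 5 of 8 fell at day 0 (Cdh15, Chrna1, Des, Myf5 and Myog, beside 5.24%), 2 of 8 at day 7 (Myf5 and Myog, beside 8.17%) and 4 of 8 were called lower than control after forskolin (Des, Myf5, Myod1 and Myog, beside 8.02%). With the mutant at day 0, 1 of 8, Myog, was past the threshold (beside 2.18%). The sum and the single genes differed for the mutant at day 7, where 6 of the 8 lay above control. The 2 below were Myog, at 489 beside 1275 FPKM, and Myod1, at 41.4 beside 73.2 FPKM. The median log2 difference was 0.42 beside -0.04 for all genes, and none of the 8 was called, beside 1.44%. After forskolin 6 of the 8 also lay above control with the mutant and 2 below, and none was called, beside 1.55%. The part of the cells that both lists mark in the values of the 9 genes was not tested, and in bulk samples fewer cells of a type and less RNA per cell cannot be told apart.

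Of 6 endothelial markers, 5 stayed below 1 FPKM in every group (Pecam1, Cdh5, Tek, Emcn and Tie1). The other, Kdr, had 1.17 FPKM with full-length NFIA after forskolin and 0.0648 FPKM in control, and the list summed to 0.134 to 1.43 FPKM over the 27 samples. Of 6 blood cell markers found in the tables, 5 stayed below 1 FPKM (Ptprc, Adgre1, Itgam, Csf1r and Cd3e), and the list summed to 2.03 to 26.7 FPKM. The other, Cd68, had 2.28, 2.47 and 3.94 FPKM in control, full-length NFIA and the mutant at day 0, 15.6, 10.4 and 8.50 FPKM at day 7, and 21.9, 10.2 and 6.71 FPKM after forskolin. Of 6 mural cell markers, 3 (Cspg4, Mcam and Notch3) reached 1 FPKM and Rgs5, Kcnj8 and Abcc9 did not. The list summed to 63.4 to 69.1 FPKM in control, 27.8 to 29.4 FPKM with full-length NFIA and 28.1 to 31.4 FPKM with the mutant at day 0. At day 7 the sums were 16.7 to 18.3, 40.6 to 42.7 and 29.1 to 30.8 FPKM in that order, and after forskolin 44.8 to 49.3, 44.1 to 49.0 and 49.6 to 70.5 FPKM. The order of the kinds of cell thus differed between time points. Of the 3 tested with full-length NFIA, 1 was called at day 0, Notch3, which fell from 47.8 to 9.42 FPKM (beside 5.24% of all genes called). At day 7, 2 of 3 were called, Cspg4, which rose from 2.01 to 9.76 FPKM, and Mcam, which rose from 2.59 to 24.4 FPKM (beside 8.17%). After forskolin, 2 of 3 were called against control (beside 8.02%), with higher Mcam (31.1 against 4.68 FPKM) and lower Notch3 (10.9 against 41.0 FPKM). With the mutant at day 0, 1 of the 3 was past the threshold (beside 2.18%), Mcam at 0.819 FPKM against 12.0 FPKM in control, and of the others Notch3 was lower and Cspg4 higher than in control. None of the 3 was called with the mutant at day 7 or after forskolin (beside 1.44% and 1.55%). The part of the cells these lists mark in the values of Pdgfrb, Cd34 and Ly6a was not tested.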

How the data were processed

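RNA-seq of 27 samples of C2C12 cells was used, with 3 replicates in each of 9 groups. The kind of cell, time point, treatment and replicate came from the labels. The authors used STAR 2.5.3a and mouse genome mm9, counted for each gene the uniquely mapped fragments of its own strand, and deposited FPKM, which were not scaled between samples. The deposited tables also hold the gene length in nt that the authors used. Every value equalled a whole number of fragments within 0.01 fragment plus a small allowance that grew with the count, so fragments were worked back. They numbered 9567769 to 27230965 per sample, and pairs of replicates differed by more than counting noise (chi-squared per gene 1.55 to 15.0).

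Groups were compared with limma 3.58.1 (R 4.3.3) on log2(FPKM + 1), with 1 mean per group and a mean-variance trend, in the 9 samples of a time point or, for time and forskolin, the samples of both conditions, over genes with a mean of 0.5 FPKM or more. P-values are 2-sided and adjusted by Benjamini-Hochberg over all genes of a comparison. Where fragments were few, 3 samples were compared with 3 in an exact permutation test. The 9 markers and 10 further lists were chosen with earlier results of these data known. All 9 markers are named, with the 3 genes closest to each measured marker or the first of them. The steps were tested on simulated data. Promoter windows came from RefSeq (GRCm38.p6). Positions are from the annotation of NCBIM37, which is mm9. Python 3.11.15 was used with scipy 1.17.1 and matplotlib 3.10.9.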

Additional observations from a re-analysis of the deposited data

Results flagged for a closer look

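A difference between kinds of cell in the same contrast, at an adjusted p-value under 0.05 of the interaction term of limma, was found for 8 results. For the response to forskolin, in which 30.6% of all genes passed that p-value for full-length NFIA and 4.97% for the Δpro#3 mutant, Pdgfra differed between full-length NFIA and control by -1.36 (SE 0.16, adjusted p = 1.21e-05 by limma) and Pdgfrb by -1.07 (SE 0.16, adjusted p = 1.31e-04). Pdgfrb also differed between the Δpro#3 mutant and control, by -0.83 (SE 0.16, adjusted p = 0.00669). In each, all 3 samples with the construct were lower after forskolin than before, while control samples overlapped.

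For the change from day 0 to day 7, full-length NFIA and control differed for 5 markers, where 71.2% of the 12408 genes tested passed the p-value. The difference was -2.08 for Pdgfra (SE 0.15, adjusted p = 3.46e-09 by limma), which had 22.5 ± 0.145 and 4.41 ± 0.326 FPKM at day 0 and 9.76 ± 0.440 and 9.51 ± 1.02 FPKM at day 7 (SD, n = 3). It was 1.60 for Pi16 (adjusted p = 1.13e-08), 0.98 for Ly6a (adjusted p = 1.09e-05), 0.38 for Cd34 (adjusted p = 0.00590) and -0.41 for Pdgfrb (adjusted p = 0.0137). Pi16 passed the minimum level through control cells of day 0, so its value is no support in itself. At day 7, the samples of Pi16 and of Pdgfra overlapped between these kinds of cell. No group had more than 3 samples, so single samples were not tested for standing apart.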

How the results depend on the processing

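The alternatives were a pseudocount of 0.1, median-ratio scaling, no minimum level or 2 FPKM, a replicate block, moderation without a trend, limma-voom on fragments, fits of only the groups compared, and leaving out each sample. For the log2 differences of single markers, 705 values were counted as unchanged under alternatives that used all samples, and 610 when a sample was left out. Unchanged meant the same direction and side of the threshold, except for the Δpro#3 mutant against control at day 0. There it meant a shift smaller than the SD between replicates. Cd34 is thus counted as unchanged there, although it passed the threshold without control replicate 2. The genes called changed were counted at a pseudocount of 1, at a pseudocount of 0.1 and with limma-voom on the worked-back fragments, and both alternatives counted over 1.5 times as many in every comparison. At day 0 they were 634, 1082 and 1131 for full-length NFIA, 264, 553 and 621 for the Δpro#3 mutant, both against control, and 248, 540 and 587 between the constructs. At day 7 they were 1007, 1569 and 1640 for full-length NFIA, 177, 417 and 479 for the Δpro#3 mutant, both against control, and 776, 1170 and 1267 between the constructs. After forskolin they were 972, 1464 and 1533 for full-length NFIA, 188, 400 and 465 for the Δpro#3 mutant, both against control, and 751, 1167 and 1238 between the constructs. In response to forskolin they were 48, 87 and 111 in control, 91, 184 and 219 with full-length NFIA and 72, 150 and 185 with the mutant. From day 0 to day 7 they were 831, 1418 and 1566 in control, 1252, 1886 and 2013 with full-length NFIA and 849, 1407 and 1541 with the mutant. For differences from the forskolin response of control they were 70, 141 and 156 with full-length NFIA and 26, 51 and 47 with the mutant, and for the difference with time between full-length NFIA and control 946, 1443 and 1550. By construction, a pseudocount of 1 makes the log2 differences of genes of low level smaller. 

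For the markers, the number called moved as follows. For full-length NFIA against control at day 0 it was 3, and 2 to 3 when a sample was left out. Pi16 was lost without control replicate 1 or full-length NFIA replicate 2. In the Δpro#3 mutant against control at day 0 it was 1, against 2 with a pseudocount of 0.1 and 3 with limma-voom, and 1 to 2 when a sample was left out (2 without control replicate 2). Between the constructs at day 0 it was 0, against 1 with either, which was Pi16. For day 7 against day 0 in control it was 0, against 1 with either (Pi16, at -2.90 and -3.22), and 0 to 1 when a sample was left out (1 without control day 0 replicate 2). With the mutant it was 1, against 2 with limma-voom, where Pi16 was at -1.60. For the difference of the forskolin response between full-length NFIA and control it was 0, against 1 with limma-voom, where Pdgfra was at -1.59. For the difference with time between full-length NFIA and control it was 2, against 1 at a minimum of 2 FPKM, which Pi16 did not reach, and 1 to 2 when a sample was left out. Clec3b at day 0 with the mutant ranged from 4.72 to 5.40 when a sample was left out and was 6.10 with a pseudocount of 0.1 and 6.26 with limma-voom. Signs turned only for differences that were not called. With median-ratio scaling, Pdgfra in the mutant against control at day 7 was 0.016, the forskolin response of Cd34 in control 0.0023 and that of Clec3b with full-length NFIA 0.078. When a sample was left out, the ranges that crossed 0 at day 7 were -0.027 to 0.11 for Pdgfra and -0.020 to 0.071 for Pdgfrb with full-length NFIA against control, -0.22 to 0.071 for Pdgfra with the mutant against control and -0.26 to 0.033 between the constructs. For forskolin responses they were -0.12 to 0.041 for Cd34 and -0.039 to 0.17 for Clec3b in control, -0.17 to 0.066 for Clec3b with the mutant, and -0.13 to 0.083 for the difference of Ly6a between the mutant and control. For Pi16 with full-length NFIA, day 7 against day 0 was -0.0030 to 0.13. 

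The replicate numbers were not treated as pairs. The deviations of samples with the same number from their group means had a mean correlation of -0.0065 over 27 pairs (-0.173 to 0.131), against 0.0033 for different numbers. With a replicate block, the genes called were 634 for full-length NFIA against control at day 0, 1007 at day 7 and 972 after forskolin, as without it. They were 69 and 25 for the differences from the forskolin response of control with full-length NFIA and the mutant. The block changed the call of no marker. Depth limits what is said of Thy1, Dpp4 and Dlk1, with 26, 8 and 1 fragments over the 27 samples, and of Pi16 at day 7.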
